A study of Mus musculus with 29 samples.

Results

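Hematopoietic stem cells (HSC) that carry a heterozygous deletion of the 5A3 interval of mouse chromosome 5 were divided by their surface level of CD150. The transcriptomes of the CD150hi and CD150lo HSC were compared within mice. The comparison takes the 10 RNA-Seq libraries whose labels give the genotype as WT/DEL (5A3+/del below) and the cell type as CD150hi HSC (5 libraries) or CD150lo HSC (5 libraries), out of 29 libraries in all. A code in the labels ties each CD150hi library to a CD150lo library of the same mouse, so there are 5 pairs. The other libraries are 10 of the same populations from WT mice, 5 of WT CD150neg cells and 4 of 5A3+/del CD150neg cells, which the labels call HSC and the study calls multipotent progenitors (MPP). All mice were C57BL/6J. The 5A3+/del mice were between 12.42 and 13.85 weeks old and the WT mice between 12.42 and 13.28 weeks. The deletion was made by Cre recombination between loxP sites and passed through the germ line, so that both populations, and every other cell of a mouse, carry it on a single chromosome copy. Cells were sorted as c-kit+, lineage-, Sca-1+, CD41- and CD48- and then divided by CD150, and each library is the amplified RNA of the sorted cells of a single mouse.

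CD150 is a homophilic receptor of the SLAM family, encoded by Slamf1, and its level divides phenotypic HSC into fractions with different behavior. On transplantation, cells with low CD150 tend to give more lymphoid progeny, and cells with high CD150 more platelets and myeloid cells. Expression of Flt3, the receptor for FLT3 ligand, marks the step from HSC to MPP with lymphoid potential, and von Willebrand factor marks a platelet-primed subset of HSC.

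The sorted gene followed the labels in every mouse. Slamf1 (chromosome 1, 173697258 to 173731315, plus strand, mm9) had 21.6, 12.6, 16.2, 10.7 and 19.4 normalized FPKM in the CD150hi libraries of mice 1 to 5 and 0.244, 2.07, 1.00, 0.341 and 0.959 in their CD150lo libraries. The populations did not overlap, and the difference was 3.19 ± 0.21 (SE) on the log2(FPKM + 1) scale (limma, adjusted p = 2.99e-08), which checks the sort and is no finding. FPKM are fragments scaled to exon length and to the fragments of the library, and normalized FPKM are the deposited values after quantile normalization on the log2(FPKM + 1) scale. The pseudocount of 1 makes the differences given here smaller than the true change for genes of low level. Kit (144 to 203 deposited FPKM) and Ly6a, which encodes Sca-1 (136 to 211), were high in all 10 libraries, whereas Cd3e, a T cell gene, did not exceed 0.0605. Cd48, against which the cells were sorted, was between 0 and 2.17 deposited FPKM in CD150hi and between 1.16 and 6.51 in CD150lo HSC.

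The CD150hi and CD150lo libraries of 5A3+/del mice held between 23007518 and 33847646 fragments each (median 26425793), as recovered from the steps of the low FPKM values. Between 23.43% and 30.17% of them (median 26.3%) came from the mitochondrial rRNA genes mt-Rnr1 and mt-Rnr2. Fragments of amplified RNA are not independent molecules, so counts of fragments cover counting error only. The CD150hi library of mouse 1 stood apart from the rest: its correlation with the other 9 libraries, across genes, was between 0.862 and 0.890, against 0.909 to 0.963 among those 9. Counts without mouse 1 are therefore given beside the main ones. In bulk RNA, fewer cells that express a gene and less RNA per cell cannot be told apart.

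Of 15409 genes tested, 602 (3.91%) differed between CD150hi and CD150lo HSC of 5A3+/del mice at an adjusted p under 0.05 (limma with the mouse as a block, Benjamini-Hochberg). Among them 336 genes (2.18%) were higher in CD150hi and 266 (1.73%) were higher in CD150lo HSC. The median difference over all genes tested was close to 0, at -0.0049 on the log2 scale, and 90% of the genes lay between -0.56 and 0.59. A difference of more than 1 on the log2 scale was found for 116 genes higher in CD150hi and 103 higher in CD150lo HSC, and a difference of more than 2 for 10 and 16 genes. The direction was the same in all 5 mice for 561 of the 602 genes (93.2%), against 14.3% of all genes tested. The 602 genes were chosen by a test on these same 5 pairs, so the higher share is in part a result of the choice. The 5 CD150hi values lay wholly above or below the 5 CD150lo values for 667 genes (4.33% of all tested), of which 395 were among the 602. Without mouse 1 the counts were 231 and 185, and leaving out mouse 2 gave the lowest counts, 207 and 172. Leaving out mouse 5 gave 223 and 174, so that mice 2 and 5 each moved both counts by more than 1.5 times. The counts fell furthest when fewer libraries set the spread: a fit to the 10 libraries alone called 90 and 75 genes, with 154 of the 602 among them, and a fit to the 20 HSC libraries of both genotypes called 201 and 169.

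**Figure D1:**
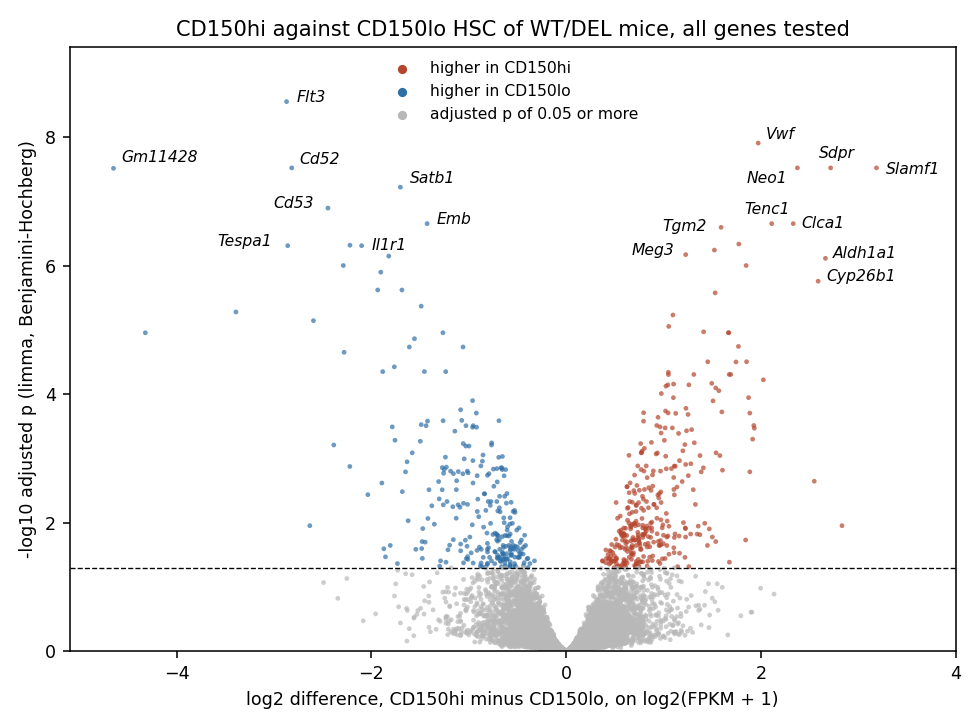
Difference between CD150hi and CD150lo HSC of WT/DEL mice (horizontal axis, log2 scale) against the -log10 of the limma adjusted p (vertical axis) for all 15409 genes, with the dashed line at an adjusted p of 0.05. Red points are the 336 genes higher in CD150hi and blue points the 266 genes higher in CD150lo HSC; Flt3 has the smallest adjusted p, and Gm11428 lies farthest from 0.

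Apart from Slamf1, Vwf, Sdpr and Neo1 had the smallest adjusted p-values among the genes higher in CD150hi HSC. Vwf, which encodes von Willebrand factor of platelets and endothelium (chromosome 6, 125496792 to 125636697, plus strand), had 6.11, 7.22, 6.93, 4.67 and 4.04 normalized FPKM in CD150hi and 0.816, 0.874, 0.563, 0.867 and 0.426 in CD150lo HSC (difference 1.97 ± 0.12 SE, adjusted p = 1.23e-08). The lowest CD150hi value was thus several-fold above the highest CD150lo value. Sdpr, which encodes a coat protein of caveolae, had 5.44, 7.55, 12.8, 13.3 and 9.53 normalized FPKM in CD150hi and 0.352, 0.282, 1.02, 0.965 and 0.350 in CD150lo HSC (2.72 ± 0.18 SE, adjusted p = 2.99e-08). Neo1, which encodes neogenin, a receptor for netrins and repulsive guidance molecules, had 8.58, 8.07, 6.46, 4.69 and 5.13 in CD150hi and 0.491, 0.495, 0.455, 0.512 and 0.221 in CD150lo HSC (2.38 ± 0.16 SE, adjusted p = 2.99e-08). None of these genes overlapped between the populations, and their CD150lo values did not exceed 1.02.

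Of the 12 genes named in this direction, Aldh1a1 and Cyp26b1 act on retinoids. Aldh1a1, an enzyme that makes retinoic acid and detoxifies aldehydes, had 65.7, 60.6, 59.8, 49.2 and 40.5 normalized FPKM in CD150hi and 5.38, 5.47, 9.01, 8.69 and 11.7 in CD150lo HSC (2.66 ± 0.23 SE, adjusted p = 7.65e-07). Cyp26b1, an enzyme that degrades retinoic acid, had 13.2, 19.1, 13.2, 7.85 and 4.76 in CD150hi and 1.70, 0.478, 0.905, 2.23 and 0.0707 in CD150lo HSC (2.59 ± 0.24 SE, adjusted p = 1.73e-06). Neither gene overlapped between the populations. The others named by the same rule were Clca1, Tenc1 (a tensin of focal adhesions), Tgm2 (transglutaminase 2), Clu (clusterin), Gpr64 (an adhesion G protein-coupled receptor), Meg3 (an imprinted long non-coding RNA) and Gda (guanine deaminase). Their differences ran from 1.23 for Meg3 to 2.33 for Clca1, with adjusted p-values from 2.2e-07 to 9.9e-07, and each was higher in all 5 mice with no overlap. In the CD150lo libraries Clu was at or near the limit of detection, with 0, 5, 8, 5 and 2 fragments, against 162 to 350 in the CD150hi libraries.

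Among the genes higher in CD150lo HSC, Flt3, Cd52, Gm11428 and Satb1 had the smallest adjusted p-values. Flt3 (chromosome 5, 148142317 to 148212065, minus strand) had 3.46, 2.55, 3.12, 2.37 and 5.16 normalized FPKM in CD150hi and 39.9, 26.0, 24.4, 25.8 and 36.8 in CD150lo HSC (-2.87 ± 0.15 SE, adjusted p = 2.78e-09), the smallest p of all genes tested. Cd52, which encodes a small glycoprotein of the lymphocyte surface, had 1.06, 0.686, 1.06, 1.95 and 2.95 in CD150hi and 14, 17.2, 14, 16 and 19.9 in CD150lo HSC (-2.82 ± 0.18 SE, adjusted p = 2.99e-08). Satb1, which encodes a chromatin organizer needed for lymphoid development, had 2.45, 1.65, 1.26, 1.54 and 1.76 in CD150hi and 8.99, 6.91, 6.98, 6.6 and 10.0 in CD150lo HSC (-1.70 ± 0.12 SE, adjusted p = 5.97e-08). In all 3 genes the lowest CD150lo value exceeded the highest CD150hi value in these mice.

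The gap was widest for Gm11428, which RefSeq names Wfdc17, with 0.979, 9.31, 15.3, 6.95 and 9.98 normalized FPKM in CD150hi and 190, 218, 164, 187 and 222 in CD150lo HSC (-4.65 ± 0.31 SE, adjusted p = 3.04e-08). Il1r1, the signaling receptor for interleukin-1, had 1.46, 2.67, 3.63, 2.67 and 3.37 in CD150hi and 14.9, 19.1, 13.3, 13.6 and 13.6 in CD150lo HSC (-2.10 ± 0.18 SE, adjusted p = 4.86e-07). The remaining genes of the rule were Cd53 (a tetraspanin of leukocytes), Emb (embigin), Gm17398, Tespa1 (a protein of antigen receptor signaling), Itgb5 (integrin beta 5), BC035044 and H2-Ob (a subunit that restrains MHC class II peptide loading). Their differences ran from -2.86 for Tespa1 to -1.43 for Emb, and none overlapped between the populations. Gm17398 (chromosome 5, 148211130 to 148213493, plus strand) overlaps the start of Flt3 on the other strand, and since the counting is not stated to use strand, reads of the 2 genes cannot be told apart.

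**Figure D2:**
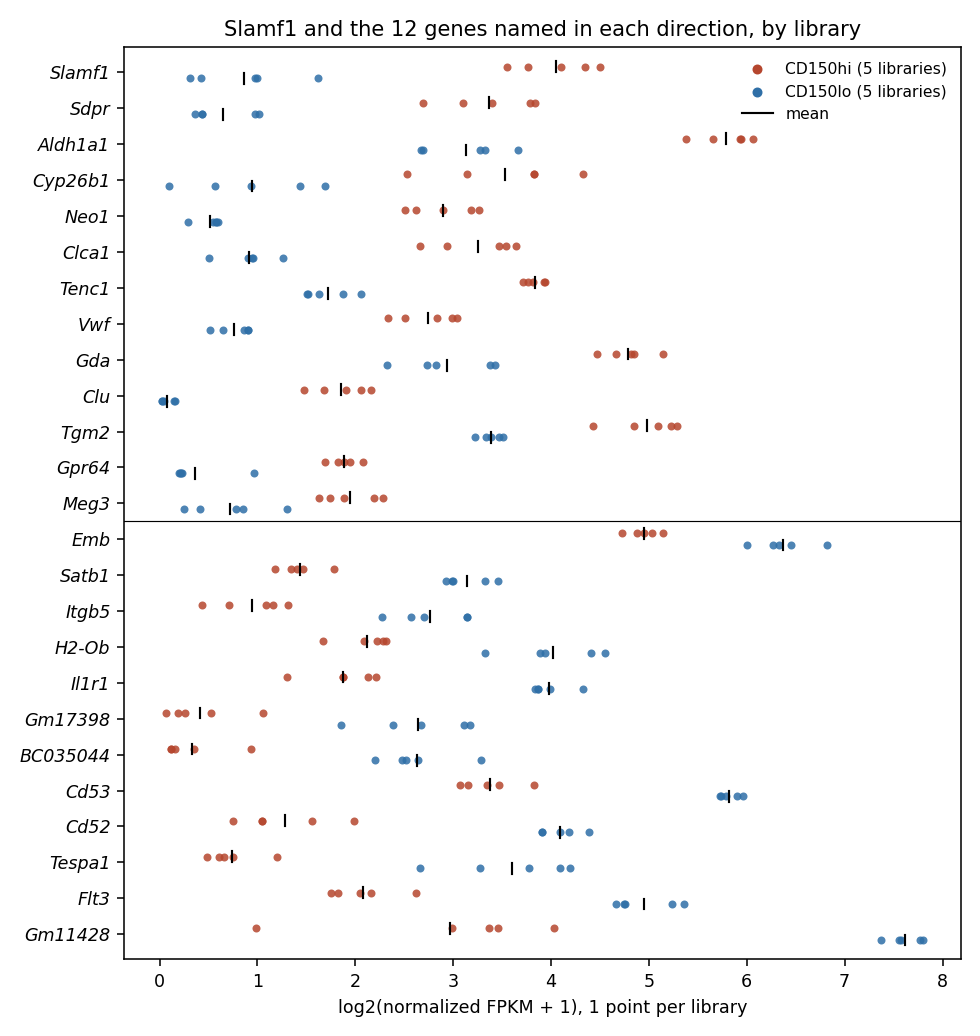
Levels of Slamf1 and of the 12 genes named in each direction as log2(normalized FPKM + 1), with 1 point for each of the 5 CD150hi (red) and 5 CD150lo (blue) libraries and a black tick at each mean. The genes above the line are higher in CD150hi and those below it are higher in CD150lo HSC; in all 25 the 2 sets of points do not overlap.

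The sequence before the start of the leading genes is shown to give these loci their context. Of Slamf1 and the 24 genes named above, 19 had an entry in the RefSeq promoter table (GRCm38.p6), and the 250 bases before the start are printed 5′ to 3′ for Slamf1 and for the first 2 of each direction that had one. Capitals mark matches, on either strand, to the motif AGATAA of the factors named for GATA, found in 10.3% of all 27025 promoters of that length, the motif TGTGGT of RUNX factors (14.2%), the motif CCGGAA of ETS factors (12.2%) or the motif GGGCGG of SP and KLF factors (32.9%).
Slamf1, chr1:171766882-171767131, plus strand: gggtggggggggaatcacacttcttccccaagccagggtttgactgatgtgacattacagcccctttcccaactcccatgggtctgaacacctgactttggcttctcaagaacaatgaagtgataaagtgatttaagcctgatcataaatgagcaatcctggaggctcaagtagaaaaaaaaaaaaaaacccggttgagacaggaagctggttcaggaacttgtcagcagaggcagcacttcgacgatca
Sdpr, chr1:51288876-51289125, plus strand: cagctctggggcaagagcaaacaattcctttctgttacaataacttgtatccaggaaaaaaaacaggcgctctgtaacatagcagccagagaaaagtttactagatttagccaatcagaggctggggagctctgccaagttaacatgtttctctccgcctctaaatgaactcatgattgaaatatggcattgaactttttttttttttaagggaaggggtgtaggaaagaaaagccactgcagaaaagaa
Neo1, chr9:59036442-59036691, minus strand: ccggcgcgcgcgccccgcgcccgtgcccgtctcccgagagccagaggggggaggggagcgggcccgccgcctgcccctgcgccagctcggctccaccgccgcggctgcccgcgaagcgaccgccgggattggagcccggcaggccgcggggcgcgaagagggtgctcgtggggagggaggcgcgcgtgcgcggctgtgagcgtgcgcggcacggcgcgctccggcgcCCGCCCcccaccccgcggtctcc
Flt3, chr5:147400490-147400739, minus strand: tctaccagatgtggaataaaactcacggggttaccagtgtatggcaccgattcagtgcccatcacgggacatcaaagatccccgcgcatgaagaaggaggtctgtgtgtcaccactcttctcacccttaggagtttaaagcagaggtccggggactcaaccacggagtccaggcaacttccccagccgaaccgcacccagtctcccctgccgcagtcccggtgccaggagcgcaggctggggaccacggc
Gm11428, chr11:83703806-83704055, plus strand: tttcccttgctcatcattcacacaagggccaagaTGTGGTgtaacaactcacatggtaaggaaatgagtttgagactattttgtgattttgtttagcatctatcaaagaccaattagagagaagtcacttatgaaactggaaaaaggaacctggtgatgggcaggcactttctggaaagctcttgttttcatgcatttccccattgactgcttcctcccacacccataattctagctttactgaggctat
The sequences are unlike each other in base content: G and C make up 83.2% of the Neo1 stretch, 59.2% of the Flt3 stretch and between 40.4% and 47.2% of those of Sdpr, Gm11428 and Slamf1. A match, or its absence from the window, is a description of these letters.

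Of 25 HSC transcription factors, all expressed, 7 were higher in CD150hi and 1 was higher in CD150lo HSC, and the median difference over the list was 0.23 against -0.0049 over all genes. Over all genes tested, 2.18% were called higher in CD150hi and 1.73% higher in CD150lo HSC, and these shares are the background of each list count that follows. Mllt3, a chromatin reader that maintains human and mouse HSC, had 53.3, 47.9, 40.8, 35.4 and 31.5 normalized FPKM in CD150hi and 23.4, 21.3, 20.8, 16.5 and 13.1 in CD150lo HSC (1.1 ± 0.11 SE, adjusted p = 5.83e-06). Hoxb5, a homeobox gene whose expression marks long-term HSC, had 6.05, 10.3, 8.86, 6.98 and 5.94 against 2.57, 5.17, 4.57, 2.04 and 2.11 (1.04 ± 0.13 SE, adjusted p = 7.12e-05). In both, each CD150hi value exceeded every CD150lo value. Gfi1b, a transcriptional repressor that acts in the erythroid and megakaryocytic lineages (1.26), Mecom (0.65), Gata2 (0.80) and Tcf15 (1.5) were also higher in CD150hi HSC. The gene higher in CD150lo HSC was Gfi1, a repressor that restrains HSC cycling and drives granulocytic fate (-0.88 ± 0.15 SE, adjusted p = 0.0013), so that the paralogs Gfi1 and Gfi1b differed in opposite directions.

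Of 20 genes for surface proteins and regulators of long-term HSC, 9 were higher in CD150hi HSC and none was lower by the test (median difference 0.49). They included Tek (the angiopoietin receptor Tie2), with 11.9, 9.39, 13.9, 10.4 and 8.83 normalized FPKM in CD150hi and 4.12, 4.74, 7.43, 5.91 and 5.09 in CD150lo HSC (0.89 ± 0.16 SE, adjusted p = 0.0018). Ctnnal1 (1.02), Ghr (0.87), Fgd5 (0.83), Eng (0.56), Esam (0.51), Cd9 (0.72) and Cdkn1c (1.21), which encodes the cyclin-dependent kinase inhibitor p57, were also among them. In the fit to the 10 libraries alone, which has few degrees of freedom, Mecom, Ctnnal1, Ghr, Fgd5 and Cdkn1c did not pass, and Cdkn1c did not pass without mouse 1 either.

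Genes tied to high CD150 and to aged HSC were higher in CD150hi HSC wherever they passed the test. Of 30 genes, 26 passed the filter on low values, and 17 of those were higher and none lower in CD150hi HSC, with a median difference of 1.45 and a median per mouse between 1.38 and 1.67. Beside the genes already named, Sult1a1, a sulfotransferase, was at 66.2 ± 40.1 in CD150hi and 17 ± 12.9 in CD150lo HSC (SD, n = 5, normalized FPKM, difference 2.03 ± 0.25 SE, adjusted p = 5.94e-05). Runx1t1 (1.77), Cd38 (1.68), Clec1a (1.89), Nupr1 (1.92), Jam2 (1.31), Fhl1 (1.23) and Ehd3 (0.84) were also higher. The list was written with earlier results of these data known and includes Slamf1 itself, so its count is a description.

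Megakaryocyte and platelet genes included members that passed in both directions. Of 25 expressed genes of the 30 in the list, 12 were higher and 1 was lower, with a median difference of 0.56. Mmrn1, which encodes a factor V carrier of platelets, had 72.6, 71.8, 76.5, 82.9 and 68.7 normalized FPKM in CD150hi and 36.2, 33.5, 44.4, 29.4 and 34.5 in CD150lo HSC (1.05 ± 0.11 SE, adjusted p = 8.77e-06). Itgb3, the beta subunit of the platelet fibrinogen receptor, had 15.4, 8.16, 11.1, 6.55 and 23.4 in CD150hi and 6.07, 1.40, 3.93, 4.16 and 7.91 in CD150lo HSC. It was higher in all 5 mice although the populations overlapped (1.29 ± 0.19 SE, adjusted p = 0.000354), and its adjusted p was 0.058 without the mouse as a block. The members that passed also include Pdzk1ip1 (0.94), Clec1b (0.95), Zfpm1 (0.65), Gucy1a3 (0.53), Rab27b (0.66) and Treml1 (1.11). The difference was negative for 5 of the 25 genes, and the 1 that passed was Plek, which encodes pleckstrin, a protein kinase C substrate shared by platelets and leukocytes, with 8.20, 8.16, 12.5, 12.0 and 8.84 in CD150hi and 23.6, 23.6, 27.3, 26.0 and 24.2 in CD150lo HSC (-1.27 ± 0.14 SE, adjusted p = 1.1e-05). The platelet chemokine genes Ppbp (-0.98, adjusted p = 0.103) and Pf4 (-0.60, adjusted p = 0.326) had lower values in CD150hi HSC in 4 of 5 mice without passing. Gata1 and Gp6 and the mature platelet genes Gp1bb and Tubb1 did not pass the filter on low values. Itga2b, Gp1ba, Gp5, Gp9 and Thbs1 passed that filter but not the test. Itga2b encodes CD41, against which the cells were sorted.

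Lymphoid priming genes that passed the test were lower in CD150hi HSC. Of 21 expressed genes of the 27 in the list, 10 were lower and none was higher by the test (median difference -0.46). Beside Flt3, Cd52 and Satb1, Btla, an inhibitory receptor of lymphocytes (-1.76), Lax1 (-1.03), Il12a (-1.68), Ikzf1, which encodes Ikaros (-0.64), Notch1 (-0.57) and Dntt, the terminal transferase of lymphoid progenitors (-2.04 ± 0.39 SE, adjusted p = 0.0036, lower in 4 of 5 mice), were lower as well. Il7r, Rag1, Rag2 and Ikzf3 did not pass the filter.

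The surface markers that rise from HSC to MPP followed the same direction. Of 10 expressed genes in the list, 7 were lower in CD150hi HSC and none was higher (median difference -1.37). Cd34, a sialomucin absent from the most quiescent adult HSC, had 38.4, 58.1, 44.7, 49.6 and 57.1 normalized FPKM in CD150hi and 137, 139, 135, 142 and 143 in CD150lo HSC (-1.49 ± 0.15 SE, adjusted p = 4.25e-06). The CD150lo values were nearly equal in the 5 mice. Cd53 (-2.45), Emb (-1.43), Cd48 (-1.30) and Cd44 (-0.53) were lower too. Within the SLAM family, Cd244 (-1.56 ± 0.17 SE, limma adjusted p = 1.36e-05), Cd48 and Ly9 (-1.05 ± 0.21 SE, limma adjusted p = 0.00497) were lower in CD150hi HSC. Slamf1 went the other way, but its product defines the populations, and the cells were also sorted against CD48. Ly9, like Csf3r, Cdk6 and Itgal below, did not pass in the fit to the 10 libraries alone.

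**Figure D3:**
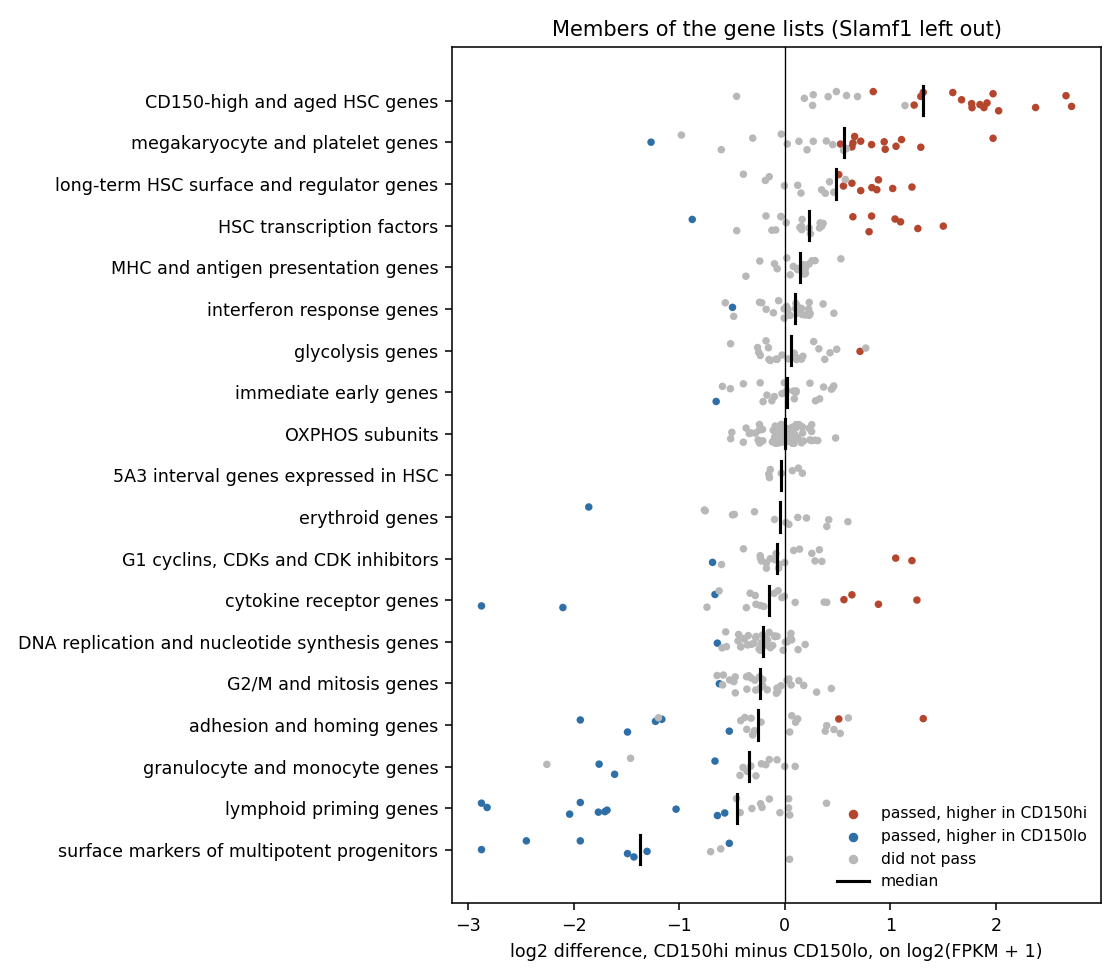
Difference between CD150hi and CD150lo HSC of WT/DEL mice (log2 scale) for the expressed members of each gene list, with 1 point per gene and a black line at the median (Slamf1 left out). Colored points passed the test. The medians of the CD150-high, megakaryocyte and long-term HSC lists lie to the right of 0, although some members lie to the left. The medians of lymphoid priming genes and MPP surface markers lie to the left, although some members lie to the right. The median of the OXPHOS subunits lies near 0.

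Among 16 expressed granulocyte and monocyte genes, 3 were lower in CD150hi HSC and none was higher (median difference -0.34). Plac8 had 1.72, 10.6, 8.31, 5.87 and 6.47 normalized FPKM in CD150hi and 14.4, 26.7, 22.7, 15.8 and 22.7 in CD150lo HSC (-1.61 ± 0.18 SE, adjusted p = 1.83e-05). Nkg7, a granule protein of cytotoxic and myeloid cells (-1.76), and Csf3r, the receptor for granulocyte colony-stimulating factor (-0.66), were lower too. Elane, which encodes neutrophil elastase, had at most 0.209 in CD150hi and between 1.18 and 14.4 in CD150lo HSC without passing the test (adjusted p = 0.0736). The summed deposited FPKM of 11 markers of mature neutrophils was 22.4, 132, 16.9, 18.1 and 15.1 in the CD150hi and 20.3, 105, 372, 178 and 148 in the CD150lo libraries of mice 1 to 5. Of the 7 of these markers that passed the filter, 1 (Ngp, -2.63 ± 0.57 SE, adjusted p = 0.011) was lower in CD150hi HSC and none was higher, and Ly6g was at 0 in all 10 libraries. The sum was higher in CD150lo HSC in 3 of 5 mice, whereas Plac8, Nkg7 and Csf3r were higher there in all 5. The part of the sum in the myeloid differences was not tested. Markers of macrophages and dendritic cells summed to 5.39, 14.1, 18.6, 16.4 and 23.4 deposited FPKM in CD150hi and 14, 40.3, 26.5, 47.5 and 41.8 in CD150lo HSC. This sum was higher in CD150lo HSC in all 5 mice, although none of the 5 markers that passed the filter passed the test.

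Markers of stromal and endothelial cells had low sums that were also higher in CD150lo HSC in all 5 mice, at 4.95, 4.95, 4.71, 5 and 6.69 deposited FPKM in CD150hi and 6.05, 8.47, 8.29, 15 and 14.1 in CD150lo HSC. Of their 5 expressed members 1 passed, Kdr, which was higher in CD150hi HSC. The part of either marker group in the other differences was not tested. Sums for B cell markers (7.03 to 31.8 in CD150hi, 8.26 to 13.8 in CD150lo HSC), T and NK cell markers (6.04 to 9.99 and 3.73 to 10.1) and mast cell markers (0.401 to 2.42 and 0.637 to 4.46) overlapped between the populations. Of the 4 T and NK cell markers that passed the filter, 1 was higher in CD150hi HSC by the test and none was lower.

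Erythroid genes had differences of both signs. Of 14 expressed genes only Car1, which encodes carbonic anhydrase 1, passed (-1.86 ± 0.48 SE, adjusted p = 0.0339), and it did not pass in 10 of 15 alternative analyses. The list held 7 genes with a positive and 7 with a negative difference (median -0.04). Beside Car1, the globin genes Hba-a1, Hbb-b1 and Hbb-b2 and the erythroid factor Klf1 had lower values in CD150hi HSC in all 5 mice without passing (adjusted p from 0.0984 for Hba-a1 to 0.297 for Hbb-b1). Mfsd2b (0.60, limma adjusted p = 0.0953, in 4 of 5 mice), Aqp1 (0.42), Epor (0.40) and Alas2 (0.21) had higher values in CD150hi HSC, also without passing. Markers of mature erythroid cells summed to 28.1, 51.2, 32, 18.9 and 18.4 deposited FPKM in CD150hi and 40.4, 62.3, 36.4, 31.4 and 26.7 in CD150lo HSC. The sum was higher in CD150lo HSC in all 5 mice, and its part in the Car1 difference was not tested.

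Among the regulators of the G1 phase, Mycn, Cdkn1c and Cdk6 passed the test. The list of G1 cyclins, cyclin-dependent kinases and their inhibitors also held Mycn. Of its 22 expressed genes, 2 were higher and 1 was lower in CD150hi HSC. Mycn, a MYC family transcription factor, had 34.2, 40.0, 48.0, 53.4 and 46.0 normalized FPKM in CD150hi and 21.5, 15.9, 21.2, 23.4 and 22 in CD150lo HSC (1.05 ± 0.13 SE, adjusted p = 4.93e-05). Cdkn1c had 10.9, 17.3, 16.2, 16 and 10.4 against 2.96, 3.81, 5.86, 10.1 and 6.67 (1.21 ± 0.26 SE, adjusted p = 0.00993). Cdk6, the kinase that controls exit from quiescence in HSC, had 24.9, 41.7, 31.2, 35.8 and 37.1 in CD150hi and 37.1, 60.9, 58.7, 55.8 and 65.5 in CD150lo HSC (-0.68 ± 0.13 SE, adjusted p = 0.00387). Mycn and Cdkn1c did not overlap between the populations, whereas the Cdk6 values did, and its adjusted p was 0.0523 without the mouse as a block. Ccnd2 was at 62.1 to 91.4 in CD150hi and 55.6 to 68.8 in CD150lo HSC (0.33 ± 0.10 SE, adjusted p = 0.101).

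Of 30 genes of G2/M and mitosis, 1 (Kif20a, a mitotic kinesin) was lower in CD150hi HSC and none was higher, and of 41 expressed genes of DNA replication and nucleotide synthesis, 1 (Rfc2, a clamp loader subunit) was lower and none was higher. The difference was negative for 23 of the 30 and for 34 of the 41 genes, with medians of -0.23 and -0.21. The median per mouse ran from -0.55 to 0.13 for the mitotic list and from -0.41 to 0.0019 for the replication list. Kif20a (-0.62 ± 0.15 SE, adjusted p = 0.0233) and Rfc2 (-0.64 ± 0.17 SE, adjusted p = 0.0366) lost the call in 9 of 14 and 8 of 15 alternatives.

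Lists of energy metabolism, stress and immune response genes held at most 1 called gene each, and for glycolysis, immediate early and interferon response genes that is close to the 3.91% called over all genes. None of 77 OXPHOS subunits passed, at a median difference of 0.0035, and the member with the smallest p was Ndufb7 (0.48 ± 0.16 SE, adjusted p = 0.131). Of 24 glycolysis genes only Hk2, a hexokinase, was higher in CD150hi HSC (0.71 ± 0.20 SE, adjusted p = 0.0472, not passed in 11 of 15 alternatives). Among 23 immediate early genes only Btg2, an antiproliferative gene, was lower (-0.65 ± 0.16 SE, adjusted p = 0.0304). Among 29 interferon response genes only Rtp4 was lower (-0.49 ± 0.13 SE, adjusted p = 0.0345). Without the mouse as a block the adjusted p-values were 0.295 for Btg2 and 0.267 for Rtp4, and over 15 alternatives the call was lost in 8 and 9. None of 18 genes of MHC and antigen presentation passed. H2-Aa had 45.3, 35.5, 35.1, 33.9 and 35.5 normalized FPKM in CD150hi and 33.0, 28.8, 30.8, 31.3 and 26.6 in CD150lo HSC (0.29 ± 0.11 SE, adjusted p = 0.198).

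The genes of the deleted interval, which both populations carry in a single copy, did not separate CD150hi from CD150lo HSC. None of the 7 expressed interval genes passed, the differences ran from -0.15 to 0.17, and the smallest adjusted p was 0.638, for Mll5. Mll5, a SET domain gene, had 19.7, 25.6, 27.7, 21.6 and 23.7 normalized FPKM in CD150hi and 23, 22.5, 28.9, 28.9 and 28.5 in CD150lo HSC. Orc5, a subunit of the origin recognition complex, had 4.17, 3.81, 4.63, 3.90 and 6.11 against 3.59, 4.31, 4.52, 2.93 and 6.20. The values of each gene overlapped between the populations. Armc10 was higher in the CD150hi library of mouse 1 (26.9) than in the other 4 (7.49 to 12.6).

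Receptors for cytokines and adhesion were divided between the populations. Of 22 expressed cytokine receptor genes, 4 were higher in CD150hi (Tgfbr3, Tek and Il11ra1 among them) and 3 in CD150lo HSC (Flt3, Il1r1 and Csf3r). Tgfbr3, the betaglycan co-receptor of the TGF-beta family, had 13.5, 39.9, 20.3, 24.3 and 19.7 normalized FPKM in CD150hi and 7.36, 10.6, 8.43, 10.5 and 7.25 in CD150lo HSC (1.25 ± 0.17 SE, adjusted p = 0.000206). Of 24 expressed adhesion and homing genes, 2 were higher in CD150hi (Jam2 and Esam) and 5 in CD150lo HSC (Cd34, Itgal, Itgam and Cd44 among them). Jam2, a junctional adhesion molecule, had 6.43, 5.32, 5.00, 4.26 and 6.25 in CD150hi and 0.828, 1.46, 2.73, 1.06 and 2.30 in CD150lo HSC (1.31 ± 0.16 SE, adjusted p = 4.91e-05). Itgal, the alpha subunit of the leukocyte integrin LFA-1, was lower in CD150hi HSC in 4 of 5 mice and not in mouse 1 (1.68 against 1.54), and passed the test (-1.22 ± 0.24 SE, adjusted p = 0.00466).

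The same comparison in WT mice contrasts other libraries, but both contrasts come from a single fit with a shared normalization, filter and estimate of the spread, so the calls of the genotypes are not independent of each other. The WT contrast called 627 of the 15409 genes (4.07%), and 356 genes were called in both genotypes, all in the same direction. These are 59.1% of the 5A3+/del genes and 56.8% of the WT genes. Of the 602 genes called in 5A3+/del mice, 586 (97.3%) had the same direction in WT mice, against 63.8% of all genes tested. The median size of the difference over the 602 genes was 0.83 in 5A3+/del mice, where they were chosen, and 0.69 in WT mice. In the test of the difference itself, none of the genes (0%) had a genotype difference of the gap by limma (smallest adjusted p = 0.870), and 732 genes (4.75%) had an unadjusted p under 0.05. Among the 602 genes, which were chosen by their difference in 5A3+/del mice, 69 (11.46%) had one. By voom on recovered fragments the count was also 0. A p that misses the threshold does not show that the gaps are alike.

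Single genes ranged from near equality to unequal values in the 2 genotypes. Vwf differed by 1.97 in 5A3+/del and 1.95 in WT mice, Flt3 by -2.87 and -2.98, and Tgm2 by 1.59 and 1.62. Slamf1 differed by 3.19 and 2.62, and Neo1 by 2.38 and 1.75. Cyp26b1 differed by 2.59 and 1.78, Plac8 by -1.61 and -2.60 and Kif20a by -0.62 and 0.02. None of these pairs passed the test of their difference after adjustment. The neutrophil gene Ngp differed by -2.63 and 0.56.

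**Figure D4:**
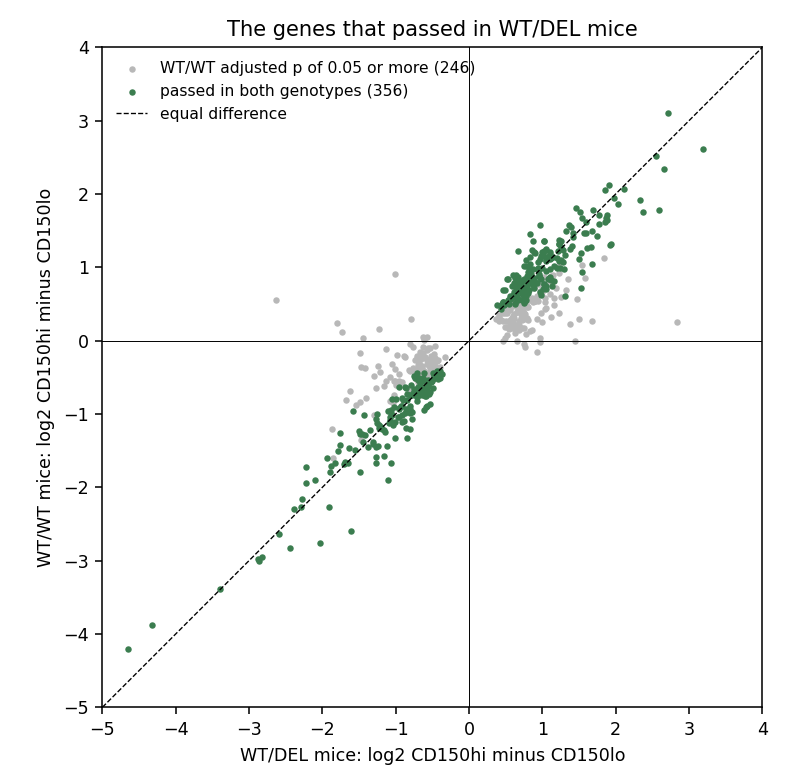
Difference between CD150hi and CD150lo HSC in WT/DEL mice (horizontal axis) and WT/WT mice (vertical axis), both on the log2 scale, for the 602 genes that passed in WT/DEL mice, with a dashed line of equal differences. The 356 genes that passed in both genotypes (green) all lie at the lower left or the upper right.

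The CD150neg MPP of the 5A3+/del mice, with 4 libraries and none from mouse 5, are shown beside the HSC populations. Since they are set against the same CD150lo libraries, their values are given side by side without a test. Of the 336 genes higher in CD150hi HSC, 253 (75.3%) had a mean in MPP below that in CD150lo HSC. Of the 266 genes higher in CD150lo HSC, 200 (75.2%) had a mean in MPP above that in CD150lo HSC. The matching shares over all genes tested were not computed, so these shares are a description only. Flt3 had 57.6, 39.5, 42.1 and 41.8 normalized FPKM in MPP, partly overlapping the 24.4 to 39.9 of CD150lo HSC. Aldh1a1 had 0.603, 3.09, 3.51 and 3.74 in MPP, below all CD150lo values (5.38 to 11.7). For Vwf, Mecom and Mycn the ranges of CD150lo HSC and MPP overlapped, at 0.26 to 0.652, 13.3 to 15.9 and 13.6 to 20.9 in MPP. For these 3 genes CD150hi HSC alone stood above both other populations without overlap.

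**Figure D5:**
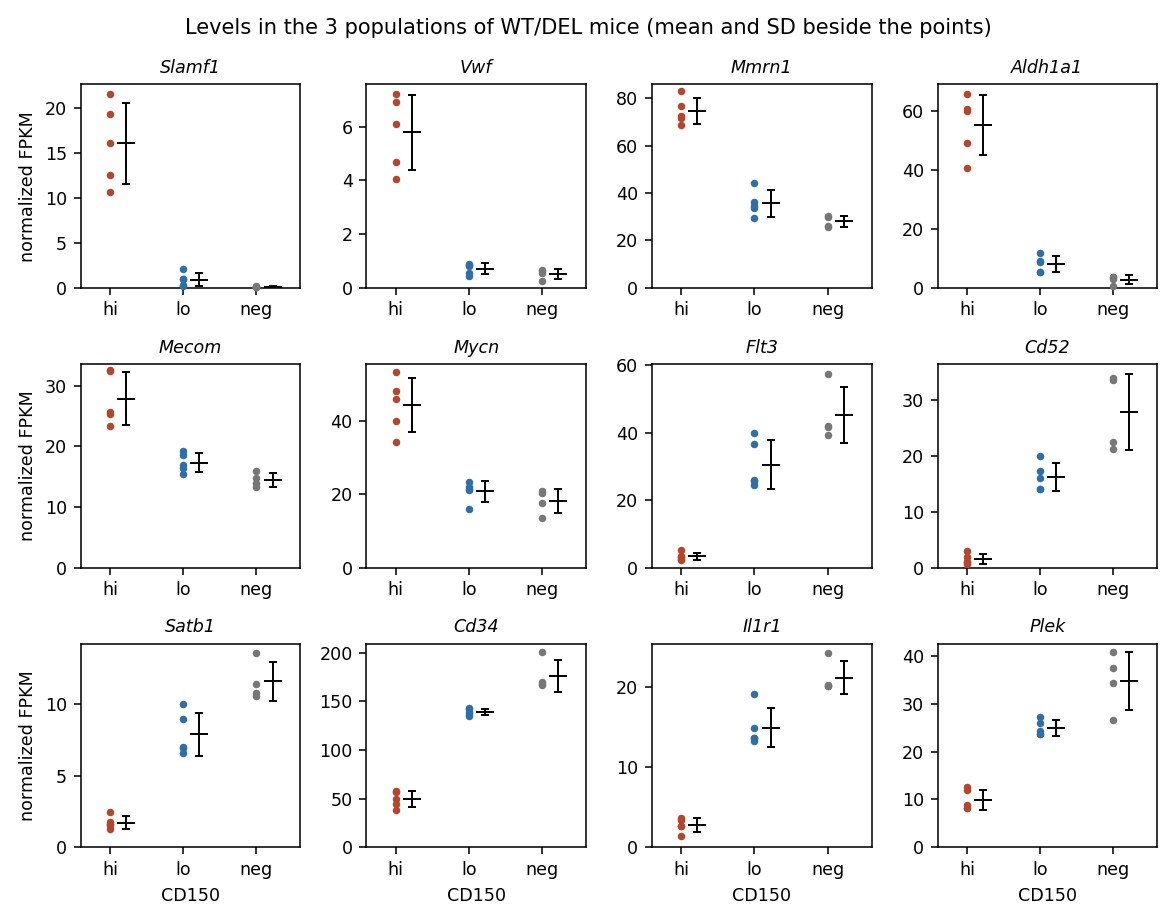
Normalized FPKM of 12 genes in CD150hi (red, n = 5), CD150lo (blue, n = 5) and CD150neg cells (grey, n = 4) of WT/DEL mice, with 1 point per library and the mean and SD beside the points. The 6 genes from Slamf1 to Mycn are highest in CD150hi HSC, and the 6 from Flt3 to Plek are lowest there.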

How the data were processed

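RNA of sorted cells was amplified (Ovation V2), made into TruSeq libraries, and sequenced with paired-end reads. The authors deposited FPKM for 30025 genes in 29 libraries (mm9; the submitters' processing notes name Bowtie version 0.12.2 and HTSeq). Fragments recovered from the steps of low FPKM values were whole, within 0.1, for 98.7% to 99.0% of low values in the 10 libraries used.

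Genes were retained where 4 or more libraries reached 1 FPKM. Values entered the model as log2(FPKM + 1) after quantile normalization. The model, in limma (version 3.58.1; R 4.3.3), took in the 29 libraries with the mouse as a block, two-sided, with Benjamini-Hochberg adjustment over all genes and a threshold of 0.05. The pairing comes from the mouse code in the labels. Deviations from the group means correlated between -0.0081 and 0.127 within the 5 pairs, and 4 of the 5 CD150hi libraries correlated best with the CD150lo library of their own mouse.

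Named genes are Slamf1, the 12 genes per direction with the smallest adjusted p that had the same direction in all 5 mice, a mean FPKM of at least 1 in the higher population and were no pseudogene, up to 4 members per list by p, and the 7 interval genes. Other list members named in the text were chosen after their values were seen, as those that passed the test. The members and lists were chosen with earlier results of these data known. Some genes of the lists are counted but not reported by name here. The fit was tested on simulated data. Alternatives covered the block, pseudocount, filter, normalization, variance prior, libraries in the fit, voom and leaving out each mouse.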

Additional observations from a re-analysis of the deposited data

Results flagged for a closer look

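In 182 sets of 5 values (91 named genes in each population), 16 held a library far from the other 4 by Dixon's criterion at 95% (8.79%), where chance flags about 1 in 20 sets. The CD150hi library of mouse 1 accounted for 7 of them: H2-Aa (45.3 normalized FPKM, others 33.9 to 35.5), H2-DMa (58, others 39.4 to 42.4), H2-Q7 (216, others 122 to 141), Armc10 (26.9, others 7.49 to 12.6), Itgal (1.68, others 0.337 to 0.621), BC035044 (0.914, others 0.0839 to 0.279) and Mcm6 (20.8, others 37.8 to 43.0). The CD150lo library of mouse 1 was high for Hba-a1 (2.34, others 1.17 to 1.36) and Cenpa (14.9, others 9.18 to 10.5) and low for Pfkl (6.91, others 8.97 to 9.63). In mouse 2, Ctnnal1 was low (2.1, others 4.31 to 5.21) and Hbb-b2 high (37.5, others 10.9 to 17.6) in CD150hi HSC, and Il1r1 was high in CD150lo HSC (19.1, others 13.3 to 14.9). In mouse 5, Car1 was high in CD150hi HSC (13.6, others 0.0487 to 3.35), and in CD150lo HSC Gpr64 was high (0.953, others 0.144 to 0.173) and Neo1 low (0.221, others 0.455 to 0.512).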

How the results depend on the processing

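All 602 genes called in 5A3+/del mice kept their direction in those of the 15 alternatives in which they were tested. Of the 602, 99 were both tested and called in all 15, where a gene dropped by a filter counts as not called. Without the mouse as a replicate block, 279 genes were higher in CD150hi and 211 in CD150lo HSC, 544 differed in WT mice and 0 in the test between genotypes; 457 of the 602 genes (75.9%) were shared, and 8 of the 56 called genes named by the fixed rule lost the call, Itgb3, Car1, Kif20a, Cdk6, Hk2, Btg2 and Rtp4 among them. The counts depended most on which libraries set the spread: with only the 20 HSC libraries in the fit they were 201 and 169, and 374 in WT mice, and with only the 10 libraries of 5A3+/del HSC they were 90 and 75. Leaving out 1 mouse gave 207 to 264 genes higher in CD150hi, 172 to 193 higher in CD150lo HSC, 398 to 471 in WT mice (398 without WT mouse 5) and 0 to 1 between genotypes. The single gene between genotypes was D330041H03Rik, without WT mouse 2, and without the filter the count was also 1 (AL645623.1). Another pseudocount, filter, normalization, variance prior or voom moved no other count by more than 1.5 times. The Slamf1 difference ran from 2.94 to 3.45 without 1 mouse. Among interval genes, none of which passed, the sign of the log2 difference turned in Dnajc2 (-0.25 to 0.0393 without 1 mouse), Armc10 (-0.2055 to 0.36) and Psmc2 (Psmc2 log2 difference -0.14 to 0.1435, and 0.1035 with the filter at 5 FPKM). At this depth, genes with few fragments in both populations could not be compared.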

Other observations

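The genes and lists in this part were chosen after their values were seen. Imprinted genes that differed were higher in CD150hi HSC: of 18 expressed genes in a list of 25, 6 were higher and none was lower, with a median difference of 0.46. Grb10, an adaptor that restrains growth factor signaling, had 26.3, 24.2, 19.2, 18.9 and 16.7 deposited FPKM in CD150hi and 9.38, 10.8, 9.14, 8.95 and 9.13 in CD150lo HSC (1.05 ± 0.13 SE, adjusted p = 4.5e-05). H19 was between 0.127 and 2.78 in CD150hi HSC and at 0 in 4 of 5 CD150lo libraries, and its neighbor Igf2 was between 0.877 and 4.77 against 0.08 and 0.768. Rian and Meg3, transcribed from the same imprinted cluster, were higher as well (1.38 ± 0.22 SE and 1.23 ± 0.11 SE), as was Cdkn1c.

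Bmp4 (1.46), Igf1 (1.57), Pdgfc (1.23) and Inhba (1.93), which encode growth factors and were picked singly, with no list of such genes counted, were higher in CD150hi HSC. Of 7 expressed CC chemokine genes, 3 were lower and none was higher: Ccl3 had 7.6, 16.9, 7.64, 3.55 and 4.13 deposited FPKM in CD150hi and 119, 105, 75.8, 54 and 62.9 in CD150lo HSC (-3.39 ± 0.34 SE, adjusted p = 5.2e-06), followed by Ccl9 (-1.89) and Ccl4 (-0.96). Of 11 expressed genes whose symbols begin with Clec, most of them for C-type lectins, 5 were higher in CD150hi HSC (Clec9a, Clec7a, Clec1a, Clec1b and Clec14a) and none was lower.

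Transcripts of the immunoglobulin heavy chain locus were present in CD150lo HSC. Of 16 expressed immunoglobulin genes, 4 were lower in CD150hi HSC and none was higher. Ighm had 0.0825, 0, 0.469, 0 and 0 deposited FPKM in CD150hi and 7.3, 14, 14.5, 17.5 and 151 in CD150lo HSC, and the highest value came from mouse 5. The B cell markers Ms4a1 and Pax5 did not pass the filter on low values. Of 8 Gimap GTPase genes, Gimap4 (0.95) and Gimap5 (0.71) were higher in CD150hi HSC, and of 15 glutathione transferase and metallothionein genes, Gstm2 (1.53) and Gstm5 (0.69) were higher.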
